A study of Mus musculus with 9 samples.

Results

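H3K9ac, acetylation of lysine 9 on the tail of histone H3, was mapped by CUT&Tag in haematopoietic stem cells of mouse bone marrow with and without Cre-mediated deletion of Dek. The regions described here are the H3K9ac peaks of chromosomes 1 to 19 from the 2 deposited H3K9ac peak lists, joined wherever a control peak and a deleted peak overlapped by at least 1 bp. This gave 5112 regions, out of 31850 when the peaks of all 9 lists of the series were joined the same way. The control library (fl) came from C57BL/6 Dekfl/fl mice without Cre, and the deleted library (cKO) from Dekfl/fl,Tie2-Cre mice, all 12 weeks old and in homeostasis. Both groups therefore carry the floxed Dek allele, and the Tie2-Cre driver acts in endothelial as well as blood cells. About 20000 cells of the gate Lin-Sca-1+c-Kit+CD48-CD150+ (HSC) were sorted for each library. The other lists used for comparison are 3 DEK lists of fl HSC, and 1 fl and 1 cKO list each of H3K27ac and H3K4me3 from the wider gate Lin-Sca-1+c-Kit+ (LSK, about 50000 cells).

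H3K9ac is deposited by acetyltransferases such as GCN5 and PCAF, is removed by class I deacetylases such as HDAC3, and is known as a mark of active promoters, where it usually lies beside H3K4me3. DEK is an abundant chromatin-bound protein that acts as a histone chaperone and can alter the access of acetyltransferases to histones. Comparing H3K9ac with and without DEK asks where acetylation differs once DEK is lost. In CUT&Tag a transposase tethered to the antibody cuts and tags nearby DNA, so reads pile up where the mark lies. A peak that is missing from a list may reflect fewer cells carrying the mark or less mark per cell. It may also reflect too few reads for a call, and these possibilities cannot be told apart.

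Each genotype has a single H3K9ac library (n = 1). Differences between the genotypes are therefore differences between 2 libraries, without a replicate check, and no test between genotypes was possible. The lists hold no read counts, and depth is unknown. Row names inside the H3K9ac lists carry numbered stems without a genotype, whereas those of the H3K27ac and H3K4me3 lists carry one, so the genotype of each H3K9ac list rests on its label alone. No H3K9ac peak lay in or within 1 kb of the Dek gene in either list, so these lists give no check of the deletion. Row names of the third DEK list carry a Flag stem where the first and second carry a DEK stem. The Flag stem ends in rmdup, as do the stems of both H3K9ac lists, whereas the first and second DEK lists share a different ending. DEK shares by class, recovery by peak strength, correlations and overlaps with other features are therefore also given without the third DEK list. Apart from the shares by class, these values were added after the data had been seen, as was the value for chromosome 9 without its clustered stretch. Other counts of regions with DEK use any of the 3 lists.

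Few H3K9ac peaks touched a promoter, and the promoters printed here are of 2 kinds. RefSeq promoters of the GRCm38.p6 assembly (the mm10 coordinates), 300 bases each from 250 before to 50 after a start, were searched. Of 31396 such windows on chromosomes 1 to 17 and 19, 106 windows of 100 genes (0.338%) overlapped a peak of either H3K9ac list, and 3 overlapped a peak of both lists (Gm40237, Gm39226 and Hdlbp). The 250 bases before the start are printed below, read 5′ to 3′ on the gene's strand. Capitals mark bases under an H3K9ac peak. Gm40237 and Gm39226, both predicted genes outside the protein-coding set, are shown because they are the 2 promoters with a peak of −log10 q of at least 5, the authors' measure of peak strength, and both have peaks in fl and cKO.
Gm40237: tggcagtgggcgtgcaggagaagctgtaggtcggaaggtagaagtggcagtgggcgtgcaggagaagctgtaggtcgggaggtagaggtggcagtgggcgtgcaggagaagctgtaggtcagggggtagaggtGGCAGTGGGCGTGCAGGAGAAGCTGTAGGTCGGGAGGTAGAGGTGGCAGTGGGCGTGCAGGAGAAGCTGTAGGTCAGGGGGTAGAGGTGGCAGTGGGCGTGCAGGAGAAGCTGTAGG
Gm39226: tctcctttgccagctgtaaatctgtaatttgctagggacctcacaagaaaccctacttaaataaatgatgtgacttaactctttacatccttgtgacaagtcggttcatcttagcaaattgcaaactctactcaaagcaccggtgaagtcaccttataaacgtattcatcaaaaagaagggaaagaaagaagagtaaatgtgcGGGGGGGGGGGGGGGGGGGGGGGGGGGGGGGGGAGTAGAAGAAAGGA

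The Gm40237 window (chr4:118547156-118547405, plus strand) is a tandem repeat: shifted by 88 bases against itself, 97.6% of the bases of its 300-base window matched. An identity of at least 80% at some shift of 5 to 100 bases was found in 16 of all 31396 windows (0.051%). The Gm39226 window (chr8:94099292-94099541, plus strand) holds a run of 33 G where the peak begins. A run of at least 20 equal bases was found in 0.758% of all windows. These measures were chosen after the sequences had been seen. At Gm40237 the −log10 q was 9.30 (fl) and 52.8 (cKO), and at Gm39226 it was 7.76 (fl) and 1.70 (cKO). The third, Hdlbp, had weak peaks over the bases after its start (1.85 and 2.48). DEK peaks overlapped both places, in all 3 DEK lists at Gm40237 and in 1 at Gm39226, and neither promoter held an H3K4me3 peak.

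The other kind is a CpG-rich promoter under H3K4me3. The following 3 promoters are shown because each had a peak in 1 genotype, at least 100 bases of its window under that peak, and a −log10 q among the highest of protein-coding promoters with H3K4me3. Ncl encodes nucleolin, a protein of ribosome assembly, Pnn encodes pinin, a nuclear protein linked to splicing, and Stt3a encodes a catalytic subunit of the oligosaccharyltransferase.
Ncl: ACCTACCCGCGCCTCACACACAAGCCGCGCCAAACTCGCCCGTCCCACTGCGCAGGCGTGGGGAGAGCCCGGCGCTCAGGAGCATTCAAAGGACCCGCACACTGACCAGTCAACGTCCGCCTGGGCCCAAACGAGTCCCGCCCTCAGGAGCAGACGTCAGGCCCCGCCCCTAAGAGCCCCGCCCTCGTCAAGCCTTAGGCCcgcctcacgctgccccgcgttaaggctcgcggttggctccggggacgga
Pnn: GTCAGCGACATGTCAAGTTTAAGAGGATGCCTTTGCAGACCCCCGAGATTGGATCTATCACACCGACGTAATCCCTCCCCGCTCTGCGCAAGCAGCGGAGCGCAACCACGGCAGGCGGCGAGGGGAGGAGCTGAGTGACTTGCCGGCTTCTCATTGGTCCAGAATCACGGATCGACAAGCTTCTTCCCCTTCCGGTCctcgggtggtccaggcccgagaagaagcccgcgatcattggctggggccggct
Stt3a: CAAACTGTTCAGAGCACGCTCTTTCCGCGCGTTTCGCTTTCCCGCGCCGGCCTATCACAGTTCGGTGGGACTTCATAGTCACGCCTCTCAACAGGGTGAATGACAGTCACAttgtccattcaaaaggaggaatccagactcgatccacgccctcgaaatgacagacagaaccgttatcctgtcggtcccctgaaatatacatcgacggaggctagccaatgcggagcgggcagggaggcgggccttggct

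The windows lie at chr1:86359456-86359705 for Ncl (minus strand), chr12:59066669-59066918 for Pnn (plus strand) and chr9:36767623-36767872 for Stt3a (minus strand). Their 300-base windows held 33, 30 and 23 CG pairs, against a median of 7 over all windows. Over the windows under an H3K4me3 peak the median was 24 in either LSK list. Ncl and Pnn had a peak in fl alone, each with a −log10 q of 3.33, and Stt3a in cKO alone, with 3.20. None of the 3 held a DEK peak, and all 3 overlapped H3K27ac and H3K4me3 in LSK. The letters GGGCGG (either strand) occurred in 54 of the 106 promoters with an H3K9ac peak (50.9%), against 36% of all windows. It was in 60% of the 75 with H3K4me3 and 29% of the 31 without. Of all windows under an LSK H3K4me3 peak, with or without H3K9ac, 72.3% (fl list) and 72.5% (cKO list) held it. CCAAT (either strand) occurred in 42.5%, against 37.3%. Of the 106 windows, 75 (70 genes) also overlapped an H3K4me3 peak. At those 75 the highest H3K9ac −log10 q was 4.37.

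Most H3K9ac regions were seen in 1 genotype. The fl list held 2099 peaks on chromosomes 1 to 19 and the cKO list 3329. Of the 5112 joined regions, 313 (6.12%, 95% exact binomial interval 5.48 to 6.82) had a peak in both genotypes, 1783 (34.9%) in fl only and 3016 (59%) in cKO only. Such intervals cover counting error only. Peaks with a −log10 q of at least 5 numbered 497 in fl and 903 in cKO, and gave 1221 regions. Of those, 179 (14.7%, 12.7 to 16.8) were shared, 318 (26%) were in fl only and 724 (59.3%) in cKO only. The fl peaks next to that threshold had −log10 q values of 5.008 inside and 4.995 outside, and the cKO peaks 5.011 and 4.972. The depth behind either list is not known.

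**Figure D1:**
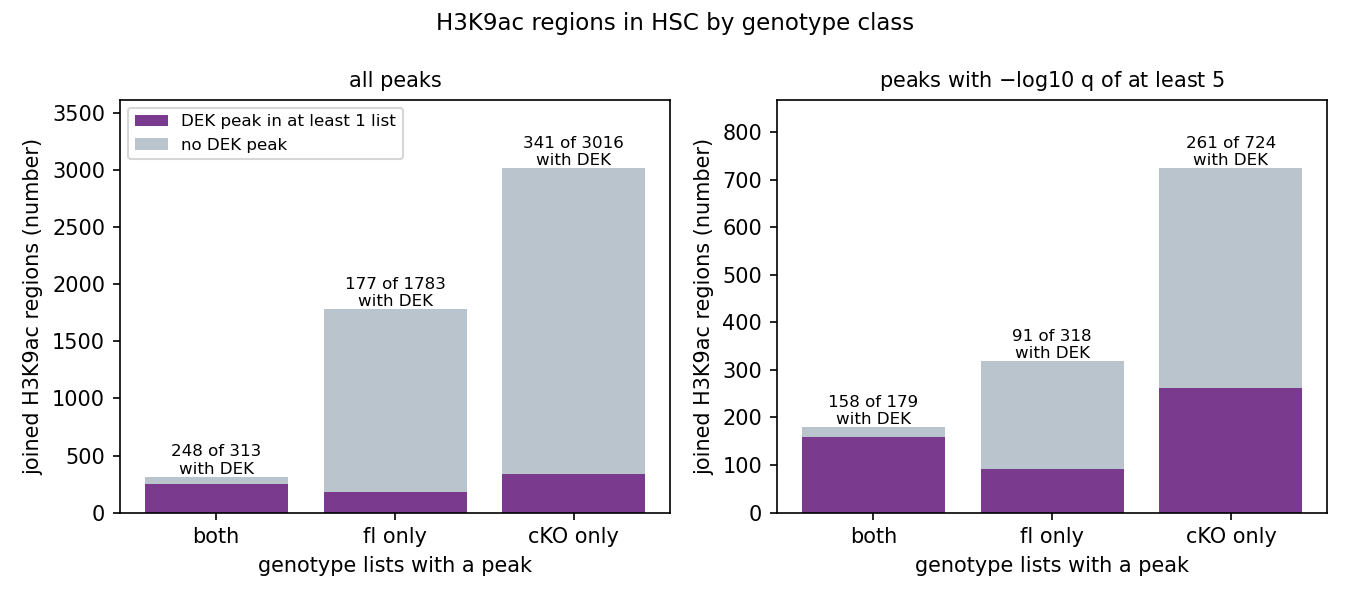
Number of joined H3K9ac regions (y axis) with a peak in both genotypes, in fl only or in cKO only (x axis), for all peaks (left) and for peaks with a −log10 q of at least 5 (right); purple is the part that overlaps a DEK peak of at least 1 of the 3 DEK lists. DEK peaks lay in 248 of 313 shared regions, and in 177 of 1783 fl-only and 341 of 3016 cKO-only regions.

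The other marks, measured in LSK cells, had a larger shared part. H3K27ac peaks of fl and cKO formed 16611 regions, of which 51.3% (50.5 to 52.0) were shared, and H3K4me3 peaks formed 10835 regions, of which 84.4% (83.7 to 85.1) were shared. Taken by list, 316 of the 2099 fl H3K9ac peaks (15.1%) overlapped a cKO peak, and 313 of the 3329 cKO peaks (9.4%) overlapped a fl peak. The third DEK list covered more of each H3K9ac list than the other genotype's H3K9ac list did, with 374 fl peaks (17.8%) and 517 cKO peaks (15.5%). The first and second DEK lists covered less, 7.05% and 6.43% of fl and 5.83% and 5.14% of cKO peaks. The third list holds 5835 peaks, against 1962 and 2008. The H3K9ac lists are weak by the authors' own values. Their median −log10 q was 2.42 in fl and 2.48 in cKO, against 24.5 and 20.3 in the H3K4me3 lists. In fl, 896 peaks (42.7%) shared 1 identical −log10 p of 5.35, and in cKO 1341 peaks (40.3%) shared 5.08.

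Regions with a DEK peak were recovered in both genotypes more often than the rest. A DEK peak of at least 1 list overlapped 248 of the 313 shared regions (79.2%, 74.3 to 83.6). The share was 9.93% (8.58 to 11.4) of fl-only and 11.3% (10.2 to 12.5) of cKO-only regions. With the cKO list trimmed by p to 2099 peaks, the length of the fl list, the fl-only and cKO-only shares were 10% and 18.3%. That cut fell among the 1341 cKO peaks tied at the lowest −log10 p of 5.08, which were taken in order of fold and then position. Among the regions of peaks past the threshold of 5, DEK lay in 158 of 179 shared regions (88.3%), 91 of 318 fl-only regions (28.6%) and 261 of 724 cKO-only regions (36%). Per DEK library, the share in shared regions was 37.1%, 32.9% and 76.4% (48.8% ± 24.0, SD, n = 3). It was 1.91%, 1.85% and 7.63% in fl-only regions (3.80% ± 3.32) and 2.59%, 2.32% and 9.25% in cKO-only regions (4.72% ± 3.93). Replicate 3 gave the highest share in every class, and each replicate had its highest share in the shared class. All 3 DEK lists had a peak in 79 shared regions (25.2%), 4 fl-only and 20 cKO-only regions. Without replicate 3, DEK peaks overlapped 44.4% of shared, 3.37% of fl-only and 4.08% of cKO-only regions. DEK was mapped in fl cells only, so cKO-only regions with a DEK peak lie at places where DEK was found in the other genotype. Shared regions were also wider, with a median of 442 bp, against 187 bp for fl-only and 219 bp for cKO-only regions. The part of this width in the DEK shares was not tested.

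DEK and peak strength moved together: a DEK peak overlapped 74.8% of fl peaks with a −log10 q of 20 or more and 3.73% of those below 2, and 77.3% and 1.34% in cKO. Recovery was therefore also read within ranges of −log10 q, which were chosen after the data had been seen. Among fl peaks with a −log10 q of at least 20, 64 of 77 with a DEK peak (83.1%, 72.9 to 90.7) overlapped a cKO peak, against 2 of 26 without one (7.69%, 0.946 to 25.1). From 5 to below 10 the shares were 59.3% (49.4 to 68.6) of 108 and 13.4% (8.67 to 19.4) of 172. Below 2 they were 33.3% (18.6 to 51.0) of 36 and 1.08% (0.517 to 1.97) of 930. The cKO list showed the same order. From 20 upward, 91 of 109 cKO peaks with a DEK peak (83.5%, 75.2 to 89.9) overlapped a fl peak, against 6 of 32 without (18.8%, 7.21 to 36.4). From 5 to below 10 the shares were 31.3% of 182 and 6.82% of 352, and below 2 they were 15.8% of 19 and 0.143% of 1398. The intervals with and without DEK did not meet in any of the 6 ranges of either list. With DEK taken from replicates 1 and 2 alone, from 20 upward 82.6% (68.6 to 92.2) of 46 fl peaks with DEK and 49.1% (35.6 to 62.7) of 57 without were recovered. In cKO these shares were 86.6% (77.3 to 93.1) of 82 and 44.1% (31.2 to 57.6) of 59. Without replicate 3, recovery of strong peaks lacking DEK was thus higher than with it, and the intervals met in the 3 cKO ranges below 5. Peaks with DEK were also wider within a range, with a median of 447 bp against 286.5 bp in fl and 529 bp against 299.5 bp in cKO from 20 upward. The part of width in the overlap was not tested.

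**Figure D2:**
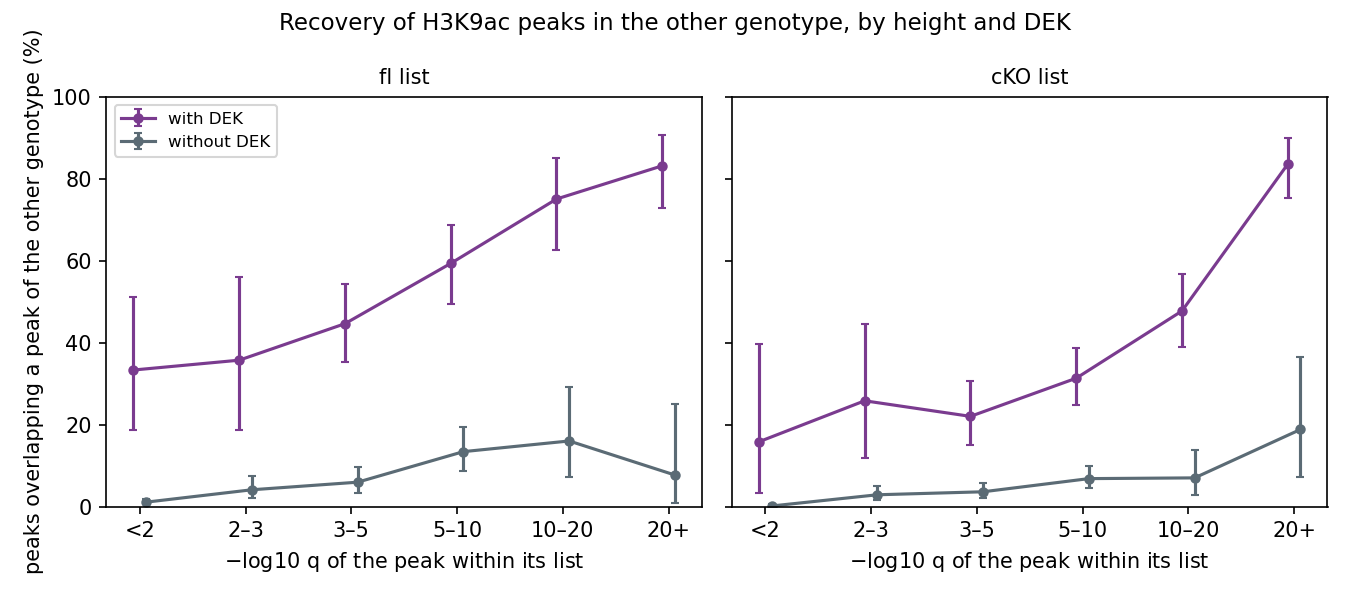
Share of H3K9ac peaks (y axis, %) that overlap a peak of the other genotype, by −log10 q of the peak (x axis), for the fl list (left) and the cKO list (right); purple peaks overlap a DEK peak, grey ones do not, and bars are 95% exact binomial intervals. At 20 and above, 83.1% of fl and 83.5% of cKO peaks with DEK were recovered, against 7.69% and 18.8% without; with DEK from replicates 1 and 2 alone the latter were 49.1% and 44.1%.

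Most of the 10 strongest shared regions lay at the ends of chromosomes, beyond the last annotated gene. Mouse chromosomes are acrocentric, with the centromere near the coordinate start and the far telomere at the other end. Of the 10 shared regions ranked highest by the lower of their 2 −log10 q values, 9 lay beyond the last annotated gene of their chromosome and none within 1 kb of a gene start. Among the first 20 and the first 50 the number beyond the last gene was 11. All 10 overlapped a DEK peak (8 of them in all 3 lists) and H3K27ac peaks of either LSK genotype, and none overlapped H3K4me3. The first was chr14:124801559-124802243, 123873 bp past the last gene on chromosome 14, whose −log10 q reached 1929 (fl) and 2495 (cKO). Next came chr7:145340932-145341456, with 1095 in fl and 1576 in cKO, and a region on chromosome 18 with 814 and 1258. The region chr12:120028663-120029021 had 780 and 1049, and chr19:61331278-61331562 had 675 and 784. The deposited fold enrichment over background ran the other way, higher in fl at each of the 5. It was 42.3 (fl) and 34.3 (cKO) on chromosome 14, and 43.0 and 36.2 on chromosome 19. All 5 held DEK peaks in each of the 3 lists. Peak sequences were not analysed here, so whether reads map uniquely at these places was not tested.

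In all, 13 H3K9ac regions lay beyond the last gene, each the only such region of its chromosome. Of these, 12 were shared and 1 was in fl only, and all 13 overlapped a DEK peak. The −log10 q of the 12 shared ones ranged from 11.2 to 1929 in fl (median 572) and from 3.54 to 2495 in cKO (median 786). Their fold enrichment over background was higher in fl at each of the 12. The fl-only region was chr11:121982369-121982539, 57041 bp past the last gene, with a −log10 q of 125, a DEK peak in replicate 3 and H3K27ac peaks in fl and cKO LSK. At the other end of a chromosome, chr9:3000123-3038161 held 16 H3K9ac regions within 38.0 kb, the largest group when regions within 100 kb of each other were chained. Of these, 13 were shared, 1 was in fl only and 2 in cKO only. All 16 held a DEK peak, 14 of them in all 3 lists, and 11 held H3K27ac. No protein-coding gene lies in that stretch, and the mapping of reads there was not tested either. Over all of chromosome 9, 9.6% of 302 regions were shared, and 5.59% of the 286 outside that stretch.

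Peak strength in fl and cKO was compared over shared regions. Over the 313 shared regions, Spearman's rho of −log10 q between the lists was 0.58 and Pearson's r of its logarithm 0.78, as a description across regions of 1 pair of libraries. Over the 248 regions with DEK the values were 0.63 and 0.81, and over the 65 without DEK 0.21 and 0.18. With DEK from replicates 1 and 2 alone they were 0.73 and 0.85 over 139 regions, and 0.42 and 0.66 over the 174 others. The 65 also spanned a smaller range, up to 27.2 in fl and 44.2 in cKO.

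**Figure D3:**
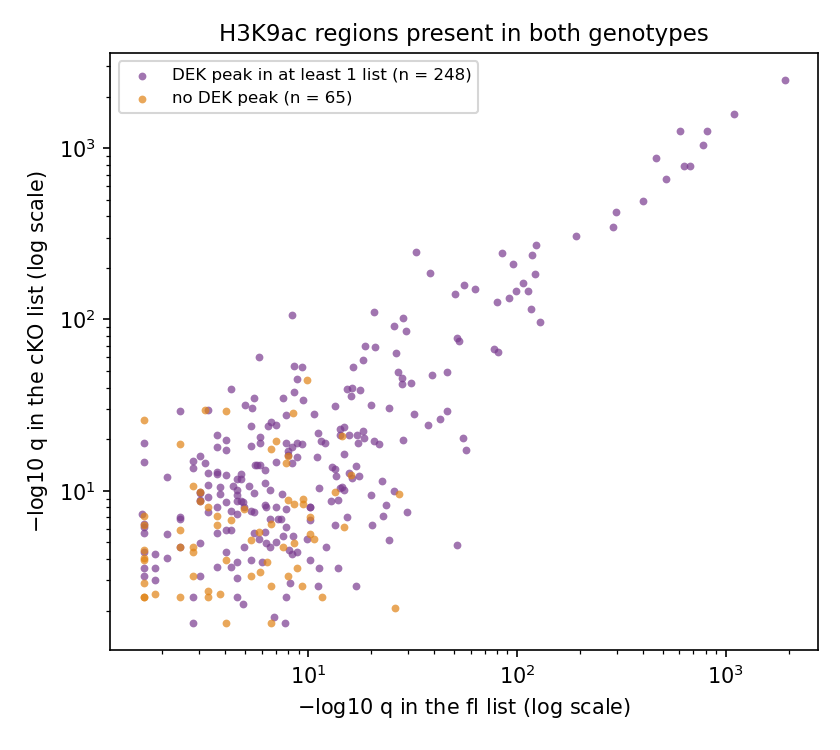
−log10 q of the 313 shared H3K9ac regions in the fl list (x axis, log scale) and in the cKO list (y axis, log scale), each point 1 region, purple with a DEK peak (248) and orange without (65). The points of the upper right, up to 1929 in fl and 2495 in cKO, all have DEK, while those without DEK stay at or below 44.2.

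Shared regions without DEK were few and moderate. They numbered 65, of which 1 lay at a gene start, and 21 when peaks below the threshold of 5 were left out. The strongest was chr13:25050397-25050665, 4608 bp from Dcdc2a, with 14.6 in fl and 20.8 in cKO. Next were chr1:92759456-92760068 in the non-coding gene Gm36102 (16.1 and 12.3) and chr4:32356732-32357130 inside Bach2, a transcriptional repressor of lymphoid cells (9.85 and 44.2). Inside genes there were also chr19:38024016-38024225 in Myof, which encodes the membrane protein myoferlin (13.4 and 9.82), and chr14:19808292-19809093 in Nid2, a basement membrane protein gene (27.2 and 9.61). None of these 5 overlapped an H3K27ac or H3K4me3 peak of LSK.

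Regions of 1 genotype reached lower values than the shared ones. The highest −log10 q was 140 among fl-only and 113 among cKO-only regions, and the medians were 1.64 and 2.08. With DEK, the strongest fl-only region was chr19:5149013-5149186 inside Pacs1, a sorting protein gene, with 140. It was followed, apart from the chromosome 11 end, by chr11:32725589-32726803 inside Fbxw11, a ubiquitin ligase subunit gene, with 59.2, by chr3:56369201-56369380, 11651 bp from Gm40054, with 39.5, and by chr11:20032537-20033310 over Gm39603, with 38.0. All of these had their DEK peak in replicate 3 alone. Without DEK, the strongest fl-only regions were chr1:126257962-126258386 inside Nckap5 (72.8), chr17:53152488-53152644 outside genes (50.7) and chr4:89264715-89264903, 9570 bp from Cdkn2a, the gene of p16 and p19ARF (42.6). The last overlapped an H3K27ac peak in cKO LSK. They were followed by chr7:139189326-139189835 at the start of Stk32c (42.0) and chr9:102645768-102645928, 11524 bp from Anapc13 (37.3).

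Among cKO-only regions with DEK, chr4:153153033-153153266 over the non-coding gene Gm31055 had the highest −log10 q, 97.3. It was followed by chr13:99901728-99902896 over Cartpt, a neuropeptide gene (79.8), chr13:94250473-94250831 inside Scamp1 (52.6), chr3:151763410-151764067 at Ifi44l (51.6) and chr3:133352483-133353578 inside Ppa2, which encodes mitochondrial pyrophosphatase (48.5). Without DEK, the highest were inside genes: chr4:145049077-145049424 in Vps13d, a lipid transfer protein gene (113), chr16:13824986-13825470 in Ntan1 (88.0) and chr15:80964923-80965561 in Adsl, an enzyme of purine synthesis (70.0). The fourth, chr17:35990383-35990697, lay 921 bp from Gnl1 (64.1), and the fifth, chr6:144594970-144595660, inside Sox5, a transcription factor gene (64.1). None of these 10 cKO-only regions overlapped an H3K27ac or H3K4me3 peak.

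H3K9ac peaks were mostly away from gene starts in both genotypes. Within 1 kb of the start of a protein-coding gene (of either annotated end for the genes without a listed start) lay 103 of 2099 fl peaks (4.91%, 4.02 to 5.92) and 174 of 3329 cKO peaks (5.23%, 4.50 to 6.04). These windows cover 2.07% of the sequence between the first and last annotated genes. By the same count, 87% of fl and 87.8% of cKO H3K4me3 peaks lay at a start, 44.5% and 57.8% of H3K27ac peaks, and 2.24%, 2.04% and 1.49% of the 3 DEK lists. The median distance from an H3K9ac summit to the nearest listed start was 47.2 kb in fl and 51.3 kb in cKO, and 0.272 kb for fl H3K4me3. Most peaks thus lay away from active promoters, the usual place of the mark, and the regions are called H3K9ac here by their label.

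**Figure D4:**
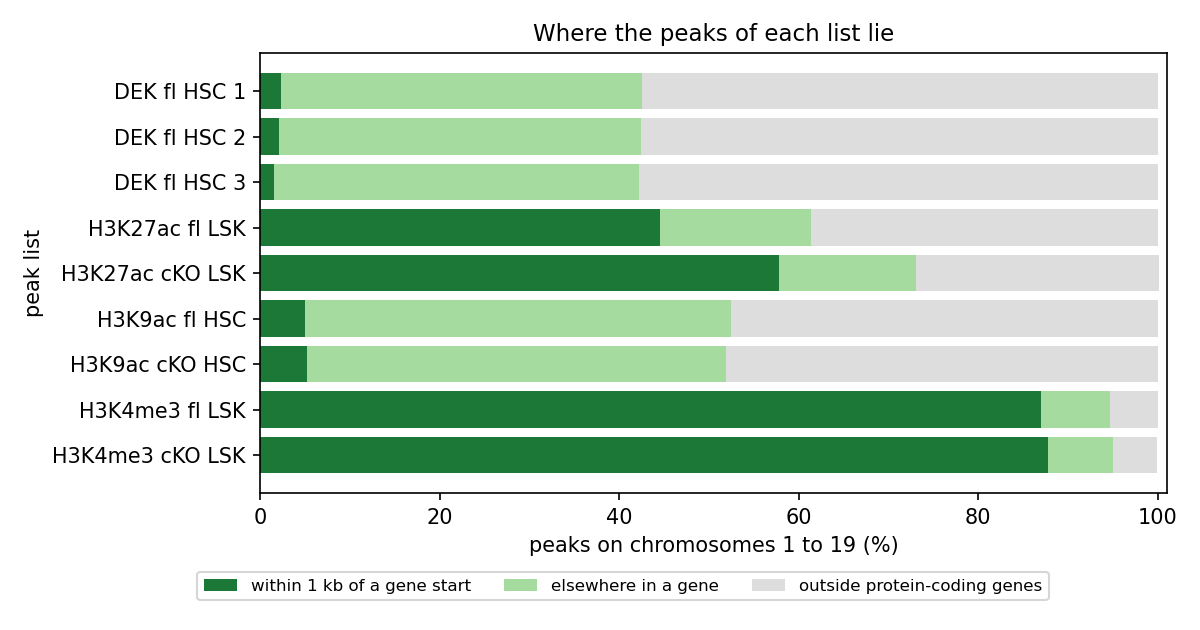
Share of peaks on chromosomes 1 to 19 (x axis, %) within 1 kb of a protein-coding gene start (dark green), elsewhere in such a gene (light green) or outside (grey), for each of the 9 lists (y axis). The H3K9ac lists have 4.91% and 5.23% at starts, the DEK lists 2.24%, 2.04% and 1.49%, and the H3K4me3 lists 87% and 87.8%.

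The share of H3K9ac peaks at gene starts was highest among weak peaks, but some peaks there were strong. Past the threshold of 5, 28 of 1221 regions (2.29%, 1.53 to 3.3) lay at a gene start. In fl, 59 of 966 peaks with a −log10 q below 2 (6.11%, 4.68 to 7.81) and 22 of 272 from 2 to below 3 (8.09%, 5.14 to 12.0) were at a gene start. From 5 to below 10 it was 6 of 280 (2.14%, 0.790 to 4.61), and from 20 upward 2 of 103 (1.94%, 0.236 to 6.84). In cKO the shares were 6.42% (5.20 to 7.83) below 2 and 8.04% (5.69 to 11) from 2 to below 3. They were 2.25% (1.17 to 3.89) from 5 to below 10 and 2.13% (0.441 to 6.09) from 20 upward. In both lists the interval from 20 upward met the one below 2. H3K4me3 overlapped 5.88% of fl and 6.03% of cKO peaks from 2 to below 3, and 0 of 280 (upper limit 1.31%) and 1.12% from 5 to below 10. From 10 to below 20 it overlapped 0 of 114 fl peaks and 0.439% of cKO peaks, and from 20 upward 1.94% and 0.709%. Regions with DEK held a gene start in 12 of 766 cases (1.57%, 0.812 to 2.72), and regions without DEK in 260 of 4346 (5.98%, 5.30 to 6.73). For H3K4me3 the shares were 0.914% with DEK and 3.82% without. For H3K27ac they were 20.1% (17.3 to 23.1) with DEK and 4.07% (3.50 to 4.70) without. Regions with DEK also had higher −log10 q. Past the threshold of 5 the intervals at starts met: a start lay in 1.76% (0.81 to 3.32) of 510 regions with DEK and 2.67% (1.62 to 4.14) of 711 without, and H3K4me3 in 0.588% and 0.703%. H3K27ac lay in 19.8% (16.4 to 23.5) and 4.5% (3.1 to 6.29) of them. With DEK from replicates 1 and 2 alone, all regions gave 1.86% (0.687 to 4.01) and 5.55% (4.92 to 6.24) at starts, 1.24% and 3.53% with H3K4me3, and 23.9% and 5.3% with H3K27ac.

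**Figure D5:**
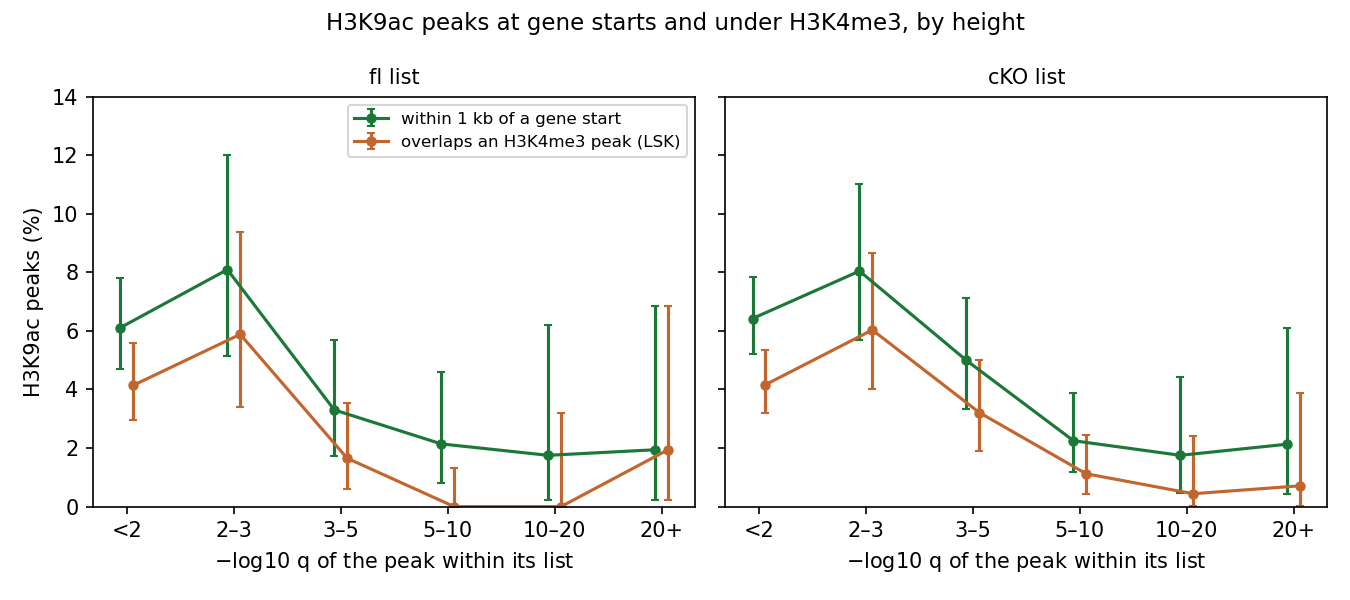
Share of H3K9ac peaks (y axis, %) within 1 kb of a gene start (green) or overlapping an LSK H3K4me3 peak (orange), by −log10 q of the peak (x axis), for the fl list (left) and the cKO list (right); bars are 95% exact binomial intervals. Peaks from 2 to below 3 have the highest share at starts, 8.09% in fl and 8.04% in cKO, and peaks from 5 to below 10 have 2.14% and 2.25%.

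By class, 5 of the 313 shared regions (1.6%, 0.521 to 3.69) lay at a gene start, 98 of the fl-only (5.5%, 4.48 to 6.66) and 169 of the cKO-only regions (5.6%, 4.81 to 6.48). H3K27ac peaks overlapped 26.2% (21.4 to 31.4) of shared, 4.66% of fl-only and 5.5% of cKO-only regions. Among shared regions the H3K27ac share was 30.2% with DEK and 10.8% without. H3K4me3 peaks overlapped 1.28% of shared, 3.37% of fl-only and 3.61% of cKO-only regions. Past the threshold of 5 these were 1.12%, 0 of 318 (upper limit 1.15%) and 0.829%, so the order of the classes did not hold there. The fl-only and cKO-only shares at starts lay within each other's intervals.

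Counted by gene, 7 of 20661 protein-coding genes (0.0339%) had an H3K9ac peak at the start in both genotypes, 102 (0.494%) in fl only and 180 (0.871%) in cKO only. In or within 1 kb of the gene, 2289 (11.1%) had a peak in either list. Of genes whose start peak passed the threshold of 5, Mfap2, which encodes a protein of elastic microfibrils, was the 1 gene called in both. Its region chr4:141009166-141009647 had a −log10 q of 7.55 (fl) and 35.0 (cKO) and DEK peaks in all 3 lists. The fl-only genes with DEK were Slc44a3, a choline transporter family gene (12.0), and Bbs2, a gene of the ciliary BBSome complex (7.76). The Bbs2 region is the one at the Gm39226 promoter, where the cKO peak of 1.70 falls below the threshold.

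The strongest fl-only peaks at gene starts without DEK were at Stk32c, a kinase gene (42.0), Zcchc24, a zinc finger gene (23.9), and Zic4, a transcription factor of the developing brain (17.5). Lower values were found at Rapsn, which clusters acetylcholine receptors at the neuromuscular junction (8.88), Ankdd1a (7.55) and Lyzl4, a lysozyme-like gene (7.55). None of these 6 overlapped H3K27ac or H3K4me3 in LSK. For Rapsn and Ankdd1a no start is listed, and the peak lies near either annotated end.

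In cKO only, with DEK, Ifi44l, an interferon-induced gene, had the highest value, a −log10 q of 51.6 with DEK peaks in replicates 2 and 3. Crebzf, a leucine zipper factor gene, had 10.5, Polr3gl, an RNA polymerase III subunit gene, 8.71, and Stra8, a gene of meiotic entry, 8.57. The Stra8 peak overlapped H3K27ac in fl LSK, and the other 5 overlapped neither mark. Il20, a cytokine gene, had 6.57, and Olfr279, an olfactory receptor gene, 5.90. Crebzf and Polr3gl also had a fl peak at the same place, below the threshold (3.77 and 3.02). With its fl peak joined, the Polr3gl region overlapped an H3K4me3 peak of LSK. Without DEK the highest was Eif4ebp2, a repressor of translation controlled by mTOR, with 47.0, followed by Paip1, a partner of poly(A)-binding protein, with 11.8, C1qtnf1 with 11.05 and Arrb1, the beta-arrestin 1 gene, with 10.4. Gm45975, a predicted gene, had 9.66 and Calr3, a calreticulin gene of testis, 9.22. The Eif4ebp2, Paip1 and Arrb1 peaks overlapped H3K27ac in cKO LSK. The Arrb1 peak also overlapped H3K4me3 in fl and cKO LSK, and the other 3 overlapped neither mark. For C1qtnf1, Arrb1 and Gm45975 no start is listed.

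Gene lists of the tissue and pathway were read against all 20661 protein-coding genes, of which 289 (1.4%) had an H3K9ac peak at the start in either list. Over the 14 lists, 8 of 259 genes found (3.09%) had one, 2 in fl only, 6 in cKO only and none in both. None of the 18 housekeeping genes and none of the 28 ribosomal protein genes had a peak at the start or inside the gene in either list, while 16 and 28 of them had an H3K4me3 peak at the start. Of the 6 genes tied to the study (Akt1, Akt2, Ccnb2, Cdkn1a, Dek and Ncor1), which are not an independent choice, none had an H3K9ac peak in or near the gene. All 6 had H3K4me3 at the start.

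Of 28 HSC identity genes, none had an H3K9ac peak at the start and 8 (28.6%) had one inside or within 1 kb, against 11.1% of all protein-coding genes. Over the other lists this share ran from 0% (housekeeping genes, for example) to 31.2% (lymphoid genes). Past the threshold of 5 it was 2 of 28 (7.14%), against 2.88% of all protein-coding genes. Gene length was not taken into account. Mecom, a stem cell transcription factor gene, held 5 peaks within chr3:30297088-30448972, 2 in fl (7.55 and 4.06) and 3 in cKO (1.70, 13.2 and 2.00), with none at the same place in the 2 genotypes. The fl peak of 7.55 and the cKO peak of 13.2 overlapped DEK peaks of replicate 3. Erg, an ETS factor gene, had 2 fl peaks (1.64 and 3.33) and 1 cKO peak (1.70), and Myb, a progenitor transcription factor gene, had 1 of each (4.57 in fl and 1.70 in cKO), all at different places. Etv6 (5.34) and Lyl1 (1.64) had a peak in fl only, and Prdm16 (4.71) and Meis1 (1.70) in cKO only. No H3K4me3 peak overlapped the peaks named here.

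Among 28 genes of quiescence and cell cycle, Cdkn2c, the gene of the CDK inhibitor p18, was the 1 gene (3.57%) with a peak at the start, a weak fl peak (1.64) that overlapped H3K27ac and H3K4me3 in both LSK genotypes. Cdk6, the kinase that drives exit from quiescence, had a shared region inside the gene, with 4.77 in fl (chr5:3479947-3480195) and 12.6 in cKO (chr5:3479941-3480403), and DEK peaks in replicates 1 and 3. A further fl peak in Cdk6 had 3.33, and Mki67, the proliferation antigen gene, had a cKO peak of 1.70. The other 25 genes had no peak in or near the gene.

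Of 20 genes of AKT and mTOR signalling, 2 (10%) had a peak at the start, both in cKO only, against 0.871% of all genes. They were Eif4ebp2 (47.0) and Pik3cd, a PI3-kinase catalytic subunit gene (1.82). Of these 2, only Eif4ebp2 passed the threshold of 5, and the lists were chosen with earlier results of these data known. Pdpk1, the kinase that activates AKT, had a fl peak of 29.4 at chr17:24086578-24086771 and a cKO peak of 2.39 at chr17:24073252-24073503. The weaker one overlapped H3K4me3, at the promoter of the neighbouring gene Kctd5, and the stronger one overlapped no other mark and no DEK peak. Inpp5d, the SHIP1 phosphatase gene, had a cKO peak of 1.70. Among 20 writers and erasers of H3K9 acetylation none had a peak at the start. Inside the genes, Sgf29, a subunit of the SAGA acetyltransferase complex, had a fl peak (4.06), and Kat6a (5.92), Hdac3 (3.20) and Crebbp (1.70) each had a cKO peak, none with DEK.

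Among 25 oxidative phosphorylation genes 2 had a peak at the start (8%), and among 18 interferon response genes 2 (11.1%). Ndufv1 and Uqcrfs1, subunits of complexes I and III, each had a cKO peak of 1.70 at the start, both under H3K4me3. Of the interferon genes, Jak1 had a fl peak at the start (1.64, under H3K4me3), Ifi44l had its cKO peak, and Ifit1 (5.01) and Ifit2 (2.39) had cKO peaks inside or near the gene. The Ifit genes are a family of similar neighbouring copies, and so are Srp54c and Srp54b, whose promoters had cKO peaks of 3.95 and 3.54, so the assignment of reads between copies is uncertain.

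Of 35 markers of stem cells and of other blood, endothelial and stromal cells, 8 (22.9%) had an H3K9ac peak in or near the gene, against 11.1% of all protein-coding genes. Gene length was not taken into account here either. Of 12 stem cell markers, 9 had H3K4me3 at the start in LSK and none had H3K9ac there, against 1.4% of all protein-coding genes. Mecom and Meis1 had an H3K9ac peak in or near the gene. For other cell types, peaks in or near the gene were found at 1 of 6 myeloid markers (Itgam, 1.64 in fl and 4.49 in cKO at different places), at 3 of 6 lymphoid (Pax5 with 1.70 in cKO, Ebf1 and Ptprc with 1.64 in fl) and at 0 of 5 erythroid and megakaryocyte markers. Of 3 endothelial markers, Kdr had a cKO peak at the start (1.70), and of 3 stromal markers, Lepr had a cKO peak inside the gene (18.5, with DEK peaks in replicates 1 and 3). Flt1, a VEGF receptor gene of endothelium, held a shared region inside the gene, with 118 in fl and 237 in cKO, a DEK peak in replicate 3 and H3K27ac in both LSK genotypes. With start peaks this rare over all genes, the markers cannot tell the cell type in these lists, and the gate was taken from the labels.

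Among the other list genes, Gp9, a platelet glycoprotein gene, had a cKO peak of 7.996 with DEK peaks in replicates 2 and 3. Ikzf1, a lymphoid transcription factor gene, had a fl and a cKO peak at different places (1.64 and 1.70), and Ccr9, a chemokine receptor gene, a cKO peak of 1.70. Of 16 genes of other tissues, Lgr5, an intestinal stem cell gene, had a cKO peak of 4.37 with DEK in replicate 3. Of 1005 miRNA hairpins, 0 overlapped any of the 5112 regions.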

How the data were processed

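CUT&Tag peak lists of mouse HSC and LSK cells were used, 1 per library. The submitters' processing notes name mm10, MACS2, Bowtie2 and Picard. Versions, control tracks and thresholds: not given in the sources used here. Deposited values of each peak are a score (10 times the −log10 p, truncated), a fold enrichment ratio over background, the authors' −log10 p-value and −log10 q-value, and a summit offset. Scores and folds were used within a list. The −log10 q values of different lists, and the folds of shared regions at chromosome ends, were set side by side as a description, without a test. Depth is unknown, as no counts are given.

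Peaks of chromosomes 1 to 19 were joined where they overlapped by at least 1 bp. In the DEK lists 11 malformed rows were left out, and 0 in the other lists. Shares carry 95% Clopper-Pearson intervals. Genes and promoter sequences are RefSeq (GRCm38.p6); 79.6% of the 20661 protein-coding genes have a listed start, and for the rest windows of 1 kb around either end were used. Promoters of chromosome 18 were not used here. Peak sequences were not analysed here.

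Named genes were, by class and with or without DEK, up to 6 with the highest −log10 q at a gene start (at least 5), the genes of the 14 lists (267 genes, 259 found) with a peak, and 6 study genes. Named regions were the 5 strongest of each class. A few list genes that met the rule are not reported here. The regions, gene lists and rules were chosen with earlier results of these data known. The join was tested on simulated peaks. Software was matplotlib 3.10.9, scipy 1.17.1, pandas 2.3.3 and numpy 2.4.6 under Python 3.11.15. Alternatives changed the overlap rule, the −log10 q minimum, list lengths, chromosomes, DEK lists and windows.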

Additional observations from a re-analysis of the deposited data

How the results depend on the processing

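No paired analysis was possible because each genotype has 1 H3K9ac library and no result comes from a test. Of 84 alternative values, 55 stayed within 1.5 times the count or within the interval of the share, and 29 did not. At a −log10 q of at least 10 there were 94 shared, 123 fl-only and 275 cKO-only regions, with DEK in 97.9%, 39.8% and 52.7%, H3K27ac in 48.9% of shared and 13.1% of cKO-only, H3K4me3 in 1.06% of shared, 0.813% of fl-only and 0.364% of cKO-only, and gene starts in 0%, 3.25% and 2.55%. With lists of equal length there were 1790 cKO-only regions, 18.3% of them with DEK. With a DEK peak in at least 2 lists, DEK shares were 41.9%, 1.23% and 2.19%. With the list of replicate 3 trimmed to the shortest DEK list, chosen after seeing the data, they were 72.8%, 7.52% and 8.75%. Leaving out 1 DEK replicate gave 44.4% to 78.3% for shared, 3.37% to 8.97% for fl-only and 4.08% to 10.4% for cKO-only regions, the lowest each without replicate 3. Windows of 2 kb put 8.19% of fl-only and 7.96% of cKO-only regions at starts, and windows around either annotated end, chosen after seeing the data, 6.5% of cKO-only. At a −log10 q of at least 5 the list genes at starts numbered 0 in fl only and 2 in cKO only. In each setting that gives a DEK share, that share was highest in shared regions. The cause of each shift was not tested. Unknown depth, tied peak values and 1 library per genotype limit every comparison.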
